A study of Homo sapiens with 6 samples.

Results

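HYPK, its overlapping neighbour SERF2 and the genes of N-terminal acetyltransferase A (NatA) were examined in NCI-H460 cells after PRMT5 knockdown. NCI-H460 is an established human lung carcinoma cell line, which the labels call lung adenocarcinoma. The 6 members were HYPK, SERF2, NAA10, NAA15, NAA16 and NAA50, found by gene name among 58825 gene records. All 6 were among the 20295 genes that passed the filter on low counts and were tested. HYPK was chosen on its own values in this contrast, so its values below are a description and carry no test. SERF2 was selected because its exons overlap those of HYPK, and the 4 NAA genes because their products form or resemble the enzyme that HYPK binds, so the fit across all genes is reported for them.

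Poly(A) RNA was sequenced from cells stably carrying a lentiviral short hairpin RNA against PRMT5 (PRMT5-shRNA, 3 libraries) or a control hairpin (NC-shRNA, 3 libraries), which the labels describe as directed against GFP. Both groups were infected with lentivirus and kept under puromycin selection. There was 1 PRMT5 hairpin group, so a change caused by that hairpin apart from PRMT5 cannot be told apart from a change caused by the loss of PRMT5. The study names the 3 libraries of a group biological replicates. The p-values measure the spread between these libraries.

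NatA attaches an acetyl group to the first residue of many proteins while they are still being made on the ribosome. NAA10 is its catalytic subunit, NAA15 is the large subunit that holds the enzyme on the ribosome, and HYPK, first described as a huntingtin-interacting protein, is a small partner that binds both and restrains the enzyme. NAA16 is a close relative of NAA15, and NAA50 is a second acetyltransferase that docks on the NatA complex. SERF2 encodes a small charged protein known for its influence on amyloid aggregation, and its gene lies directly upstream of HYPK.

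On build GRCh38, HYPK (ENSG00000242028) lay at chr15:43796142-43803043 and SERF2 (ENSG00000140264) at chr15:43777087-43802589, both on the plus strand. In GENCODE release 29, HYPK had 5 transcripts and SERF2 had 17. Merged over transcripts, HYPK had 6393 exon bases and SERF2 had 7347, of which 2491 were exon of both genes (39.0% of HYPK and 33.9% of SERF2). Every one of the 1051 bases of HYPK-202, a spliced coding transcript, including its 387 coding bases, was also annotated as SERF2 exon. Of the 17 SERF2 transcripts, 6 had exon bases in HYPK exons and 2, SERF2-208 and SERF2-213, ran through the coding exons of HYPK. Both of these are annotated as targets of nonsense-mediated decay. Of the 395 coding bases of HYPK merged over transcripts, 387 were also SERF2 exon. A read lying inside these shared bases therefore matched annotated transcripts of both genes. HYPK-203 and HYPK-204 skip a coding exon, and the junction this makes was in no SERF2 transcript. How the authors' estimate divided the shared reads is not given in the sources used here.

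**Figure D1:**
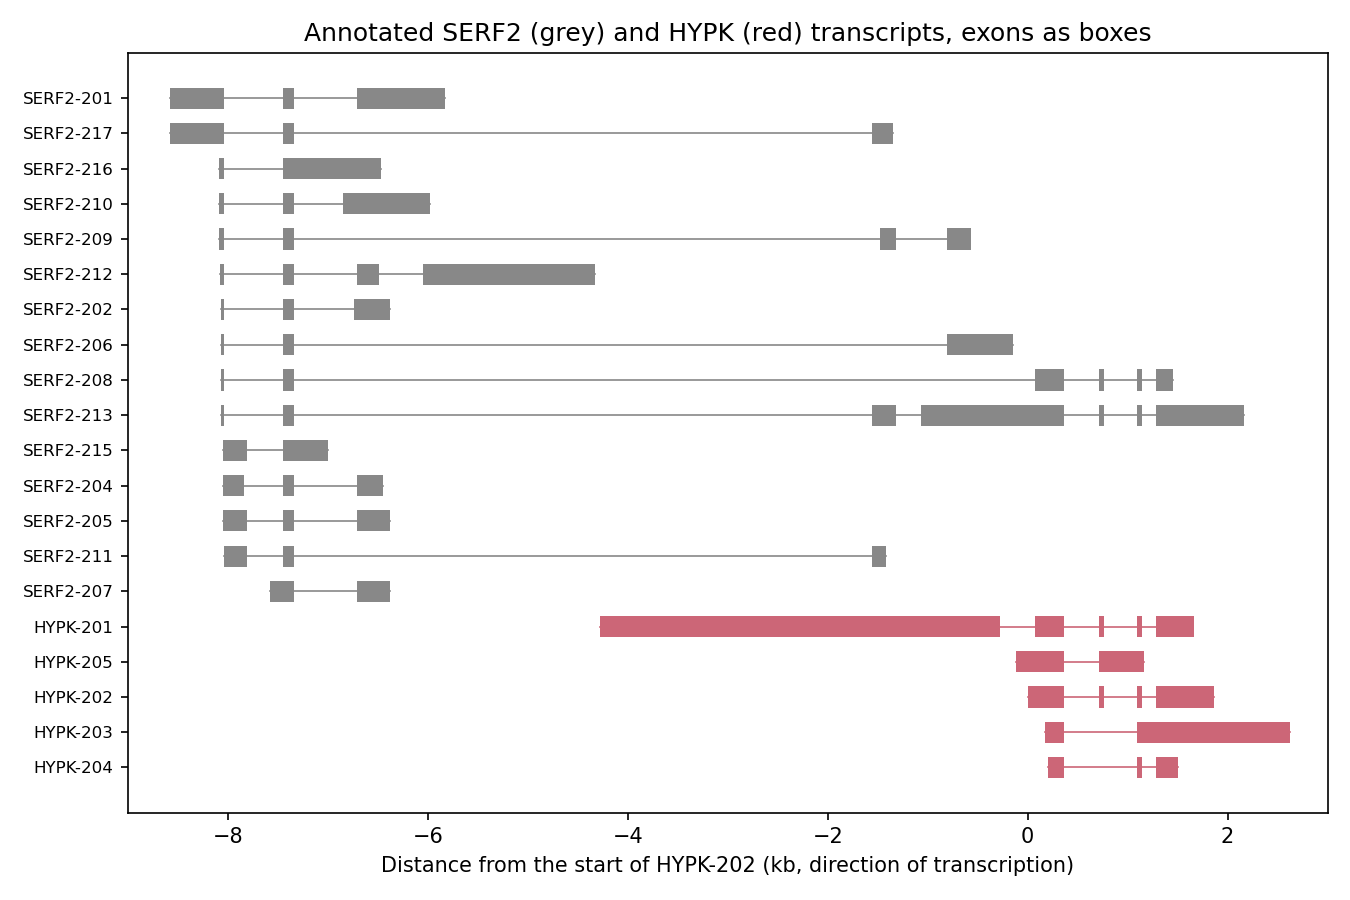
Exons (boxes) and introns (lines) of the annotated transcripts, with distance from the start of HYPK-202 in kb on the x axis and 1 transcript per line. The 5 HYPK transcripts (red) and 15 SERF2 transcripts (grey) are drawn, and 2 SERF2 transcripts that begin further upstream are left out. Only SERF2-208 and SERF2-213 hold the coding exons of HYPK.

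SERF2 transcripts differ at the splice junctions downstream of a shared SERF2 exon, which ends at base 43793083 of chromosome 15. Each line below names a single transcript, but other transcripts can hold the same junction. The junction of SERF2-201 is also in SERF2-203, SERF2-204, SERF2-205, SERF2-207 and SERF2-212. That of SERF2-217 is also in SERF2-211 and in SERF2-213, which runs through the coding exons of HYPK. The junctions are shown to make visible which reads could be assigned to SERF2 alone and which could not. In each line the capitals mark the last 15 bases of that SERF2 exon and the lower case letters the first 15 bases of the exon that follows, on the plus strand.
SERF2-201 (next exon begins at 43793710): CGCCCGCAAGCAGAGggactcggagatcat
SERF2-217 (next exon begins at 43798869): CGCCCGCAAGCAGAGtgctattacttcatc
SERF2-206 (next exon begins at 43799619): CGCCCGCAAGCAGAGgttctgtttcaagct
SERF2-208 (next exon begins at 43800495): CGCCCGCAAGCAGAGcttctagaactggag
SERF2-201 ends upstream of HYPK, the next exons of SERF2-217 and SERF2-206 begin in the long first exon of HYPK-201, and SERF2-208 joins an exon of HYPK. A read across any of these junctions can come only from SERF2 among the annotated transcripts of the pair. The coding exon of HYPK at chr15:43801132-43801187 (plus strand) is given in capitals throughout, because all of its 56 bases are exon of both genes.
HYPK coding exon: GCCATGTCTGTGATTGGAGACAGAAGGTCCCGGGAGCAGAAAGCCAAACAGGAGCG
These bases were contained in exons of 3 HYPK and 2 SERF2 transcripts, so a read lying inside it matched both genes. Counts per junction were not analysed here.

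The targeted gene was checked first. PRMT5 (ENSG00000100462), the arginine methyltransferase against which the hairpin is directed, had normalized counts (CPM, counts scaled to the library size) of 143, 127 and 128 under NC-shRNA and of 45.8, 45.6 and 38.3 under PRMT5-shRNA. PRMT5 was thus at 32.6% of its control level (log2 fold change -1.62, SE 0.094, edgeR adjusted p = 0.0063), and no PRMT5-shRNA library reached a control library. Total counts ranged from 53531257 to 70518401 per library. The 5 epithelial markers summed to 1467 to 1644 CPM in NC-shRNA and 1333 to 1353 CPM in PRMT5-shRNA libraries. The 4 markers of lung adenocarcinoma (NKX2-1, NAPSA, SFTPB and SFTPC) summed to at most 0.852 CPM in any library, so they were nearly absent although the labels name that tumour. The 4 blood markers summed to 2.06 to 2.43 CPM in NC-shRNA and 2.75 to 4.02 CPM in PRMT5-shRNA libraries, with CD3E at 0 counts in all. The 4 fibroblast markers summed to 101 to 129 and 91.5 to 109.6 CPM, with COL1A2 at 0 counts, and the 4 endothelial markers to 9.74 to 10.8 and 14.7 to 18.5 CPM. Of all these markers, only the endothelial VWF was called by edgeR, with 0 counts in every control library and 128, 105 and 122 in those of PRMT5-shRNA (adjusted p = 0.0341). Whether these marker levels bear on the members was not tested. In a bulk sample, fewer cells that express a gene and less RNA of it per cell cannot be told apart.

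HYPK was low in all 3 PRMT5-shRNA libraries. The control libraries held 3059, 3188 and 2507 HYPK counts, and those of PRMT5-shRNA held 165, 320 and 89. On the CPM scale these were 45.6, 46.0 and 40.4 against 3.02, 4.57 and 1.55. The highest PRMT5-shRNA library lay far below the lowest control library. The control libraries lay close together (44.0 ± 3.14 CPM, SD, n = 3), whereas the PRMT5-shRNA libraries spread widely around a low mean (3.05 ± 1.51 CPM, SD, n = 3). HYPK was thus at 6.93% of its control level, and the fitted log2 fold change was -3.84 (SE 0.369, 95% interval -4.72 to -2.97).

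HYPK was 1 of 14 genes called at an adjusted p under 0.05 (edgeR's quasi-likelihood test, 0.0690% of the genes tested), and it was chosen on this same contrast. With 1 library left out, 8 to 25 genes were called (8 without NC-shRNA replicate 2, 25 without NC-shRNA replicate 3 and 9 without PRMT5-shRNA replicate 1), and the call of HYPK was lost without any 1 of the 3 control libraries or without PRMT5-shRNA replicate 1. By size of fall it ranked 16 among the 20295 genes tested. Of the 4618 genes with at least its mean CPM in NC-shRNA cells, none fell further. These ranks describe the choice and support nothing beyond it.

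The level of SERF2 did not pass the test for a difference. It had 26472, 23460 and 16698 counts in NC-shRNA and 19311, 23364 and 19100 counts in PRMT5-shRNA libraries, or 394, 338 and 269 CPM against 354, 334 and 332 CPM. All 3 PRMT5-shRNA libraries lay inside the range of the control libraries. The means were 334 ± 62.9 CPM in control and 340 ± 12.0 CPM in PRMT5-shRNA cells (SD, n = 3 each). The log2 fold change was 0.026 (SE 0.131, 95% interval -0.28 to 0.34, edgeR adjusted p = 0.955), and its sign depended on single libraries. It was -0.11 without NC-shRNA replicate 3, the lowest control library, 0.16 without NC-shRNA replicate 1, the highest, and -0.0039 without PRMT5-shRNA replicate 1.

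**Figure D2:**
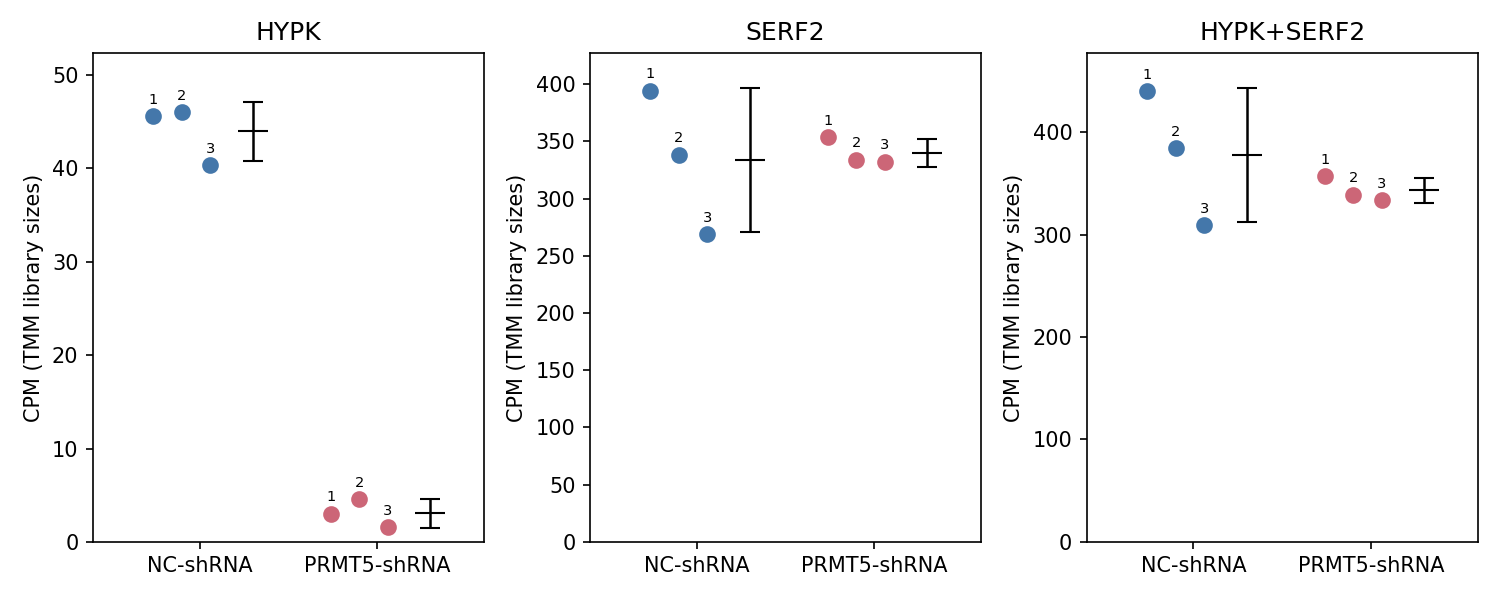
CPM of HYPK (left), SERF2 (middle) and their sum (right) on y axes that start at 0, with 1 point per library, numbered by replicate, and the mean ± SD beside each group of 3. The groups are separate for HYPK (1.55 to 4.57 against 40.4 to 46.0 CPM) and overlap for SERF2 and for the sum.

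The sum of both genes was taken to see whether the counts missing from HYPK were found in SERF2. A sum does not depend on how shared reads are divided between the pair. The control libraries gave 440, 384 and 309 CPM, and those of PRMT5-shRNA 357, 339 and 334 CPM. The groups overlapped, since the lowest library of all was a control. The means were 378 ± 65.6 and 343 ± 12.2 CPM (SD, n = 3 each), and PRMT5-shRNA cells were at 90.8% of the control level. The log2 fold change of the sum was -0.14 (SE 0.122, 95% interval -0.43 to 0.15), which includes 0.

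The loss of HYPK was small beside SERF2. HYPK lost 40.9 CPM between the group means, which is 12.3% of the mean SERF2 level in NC-shRNA cells and 10.8% of the mean sum. Had HYPK fallen as measured while SERF2 kept its control mean, the sum would have changed by -0.17 on the log2 scale. Had SERF2 taken up all that HYPK lost, the sum would not have changed and SERF2 would have risen by 0.17. The interval of the sum includes both -0.17 and 0, and the interval of SERF2 includes both 0 and 0.17. In CPM, the interval of SERF2 ran from -59.7 to 87.8 around its control mean, and the control libraries alone differed by 125.5 CPM. With all 6 libraries, a loss of HYPK transcripts and an assignment of their reads to SERF2 cannot be told apart from the sum. The sum depended on single control libraries. Without NC-shRNA replicate 3, its log2 fold change was -0.27 (95% interval -0.46 to -0.079, edgeR unadjusted p = 0.0136, adjusted p = 0.274), an interval that includes -0.17 but not 0. Without NC-shRNA replicate 1, it was -0.016 (95% interval -0.26 to 0.23, edgeR adjusted p = 0.976), an interval that includes both.

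Within each library, HYPK made up 10.4%, 12.0% and 13.1% of the counts of the pair in NC-shRNA cells and 0.847%, 1.35% and 0.464% in PRMT5-shRNA cells. The shares did not overlap, and the mean fell by 10.9 percentage points, from 11.8% ± 1.36 to 0.887% ± 0.445 (SD, n = 3 each). A share within a library does not depend on the scaling between libraries, but it does depend on how shared reads were divided. On the deposited FPKM values (fragments per kilobase of exon, scaled to depth) the share was 13.3% ± 1.51 against 1.01% ± 0.513.

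**Figure D3:**
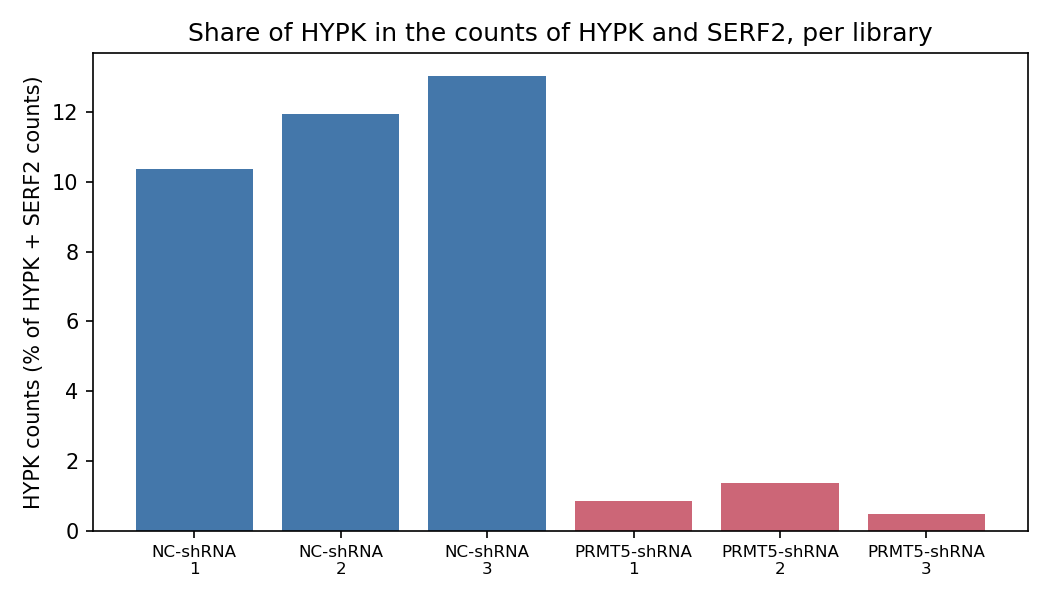
HYPK counts as a percentage of HYPK plus SERF2 counts (y axis, from 0) in each of the 6 libraries (x axis), NC-shRNA in blue and PRMT5-shRNA in red, 1 bar per library and no error bars. The control bars lie between 10.4% and 13.1% and the PRMT5-shRNA bars between 0.464% and 1.35%.

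The same share was computed for every pair of tested genes with common exon bases on one strand. There were 1326 such pairs, and in 177 of them (13.3%) the shares of the less abundant gene did not overlap between the groups. Fitted as a difference of log2 fold changes, HYPK over SERF2 changed by -3.87, which ranked 19 by size among these pairs. By the change in the share itself, in percentage points, the pair ranked 237. The median size of the log2 change of the less over the more abundant gene was 0.48, and 85 pairs changed by at least 2 on that scale. Large changes between genes with common exons were thus found at other loci as well. Beyond the filter on low counts, no floor was set on the counts of the less abundant gene or on the shared bases. Pairs with a far less abundant gene than HYPK can therefore be among them. Whether reads were divided differently at these loci was not tested.

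The deposited FPKM values did not separate transcripts. Dividing counts by FPKM gave the length that had been used for each gene, which was 6395 to 6476 bases for HYPK and 7345 to 7348 bases for SERF2 in the 6 libraries. These are the merged exon lengths of 6393 and 7347 bases to within 2%. A change in the length of the transcripts used is therefore not visible in the FPKM values.

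Genes around the pair were measured next. Of 10 genes overlapping or flanking HYPK and SERF2, 8 had any count and 6 were tested, of which 0 were called by edgeR or by DESeq2. PDIA3, a protein disulphide isomerase of the endoplasmic reticulum encoded upstream of SERF2, had 875, 808 and 774.5 CPM in control and 708, 758 and 693.5 CPM in PRMT5-shRNA libraries. Its groups did not overlap, but the log2 fold change of -0.19 (SE 0.065) did not pass the test (edgeR adjusted p = 0.318). Groups that do not overlap were found in 21.7% of all tested genes. MFAP1, a spliceosome protein, and WDR76, a WD-repeat protein, lie downstream and had log2 fold changes of -0.091 (SE 0.066) and 0.045 (SE 0.089). CATSPER2P1, a pseudogene upstream, was at 0.947 ± 0.159 CPM in control and 0.523 ± 0.119 CPM in PRMT5-shRNA cells (SD, n = 3 each), with a log2 fold change of -0.85 (SE 0.312, edgeR adjusted p = 0.335). Of these 6 genes, CATSPER2P1 and PDIA3 had an unadjusted p under 0.05, as 12.8% of all tested genes did.

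Genes on the opposite strand of the pair had few counts. SERINC4 had 4, 8 and 5 counts in control and 8, 2 and 13 in PRMT5-shRNA libraries, MIR1282 had none, and AC018512.1 had between 0 and 76. ELL3, an elongation factor for RNA polymerase II, had 4.68 ± 0.494 and 4.52 ± 0.609 CPM (SD, n = 3 each). The library kit kept strand, but whether the counting used it is not given in the sources used here.

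The 4 acetyltransferase genes showed no change that passed the test. Including SERF2, 0 of the 5 members other than HYPK were called by edgeR or by DESeq2, 0 had an unadjusted p under 0.05, and in all 5 the groups overlapped. NAA10 (ENSG00000102030, chromosome X, 153929242 to 153935223, minus strand) had 104, 83.6 and 92.8 CPM in control and 91.3, 91.1 and 81.1 CPM in PRMT5-shRNA libraries. Its highest library and its next to lowest were both controls. The log2 fold change was -0.092 (SE 0.097, 95% interval -0.32 to 0.14, edgeR adjusted p = 0.735), so the fit left room for a level between 80.0% and 110.0% of control. Gene bounds, introns included, overlapped on the same strand for NAA10 with ARHGAP4, NAA15 with RNU6-1214P and NAA50 with AC108693.1.

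NAA15 (ENSG00000164134, chromosome 4, 139301455 to 139420033, plus strand) had 74.0, 83.3 and 82.2 CPM in control and 81.0, 81.7 and 94.1 CPM in PRMT5-shRNA libraries. Only PRMT5-shRNA replicate 3 lay above the control libraries. The log2 fold change was 0.10 (SE 0.085, 95% interval -0.10 to 0.30, edgeR adjusted p = 0.664), or 93.3% to 123.3% of control.

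NAA16 (ENSG00000172766, chromosome 13, 41311205 to 41377030, plus strand) was the least abundant of the 4, with 11.0, 13.3 and 10.7 CPM in control and 13.2, 10.7 and 8.66 CPM in PRMT5-shRNA libraries. PRMT5-shRNA replicate 3 was the lowest library, and the other two lay within or at the edge of the control range. The log2 fold change was -0.10 (SE 0.180, 95% interval -0.53 to 0.32, edgeR adjusted p = 0.846). Its interval was the widest of the 4, from 69.3% to 125.1% of control, and without PRMT5-shRNA replicate 3 the value was 0.036.

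NAA50 (ENSG00000121579, chromosome 3, 113716460 to 113746300, minus strand) had 172, 164 and 189 CPM in control and 178, 174 and 184 CPM in PRMT5-shRNA libraries. All PRMT5-shRNA libraries lay inside the control range. The log2 fold change was 0.030 (SE 0.068, 95% interval -0.13 to 0.19, edgeR adjusted p = 0.886), or 91.3% to 114.2% of control, and without NC-shRNA replicate 2 it was -0.015. NAA50 had the narrowest interval of the 6 members.

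**Figure D4:**
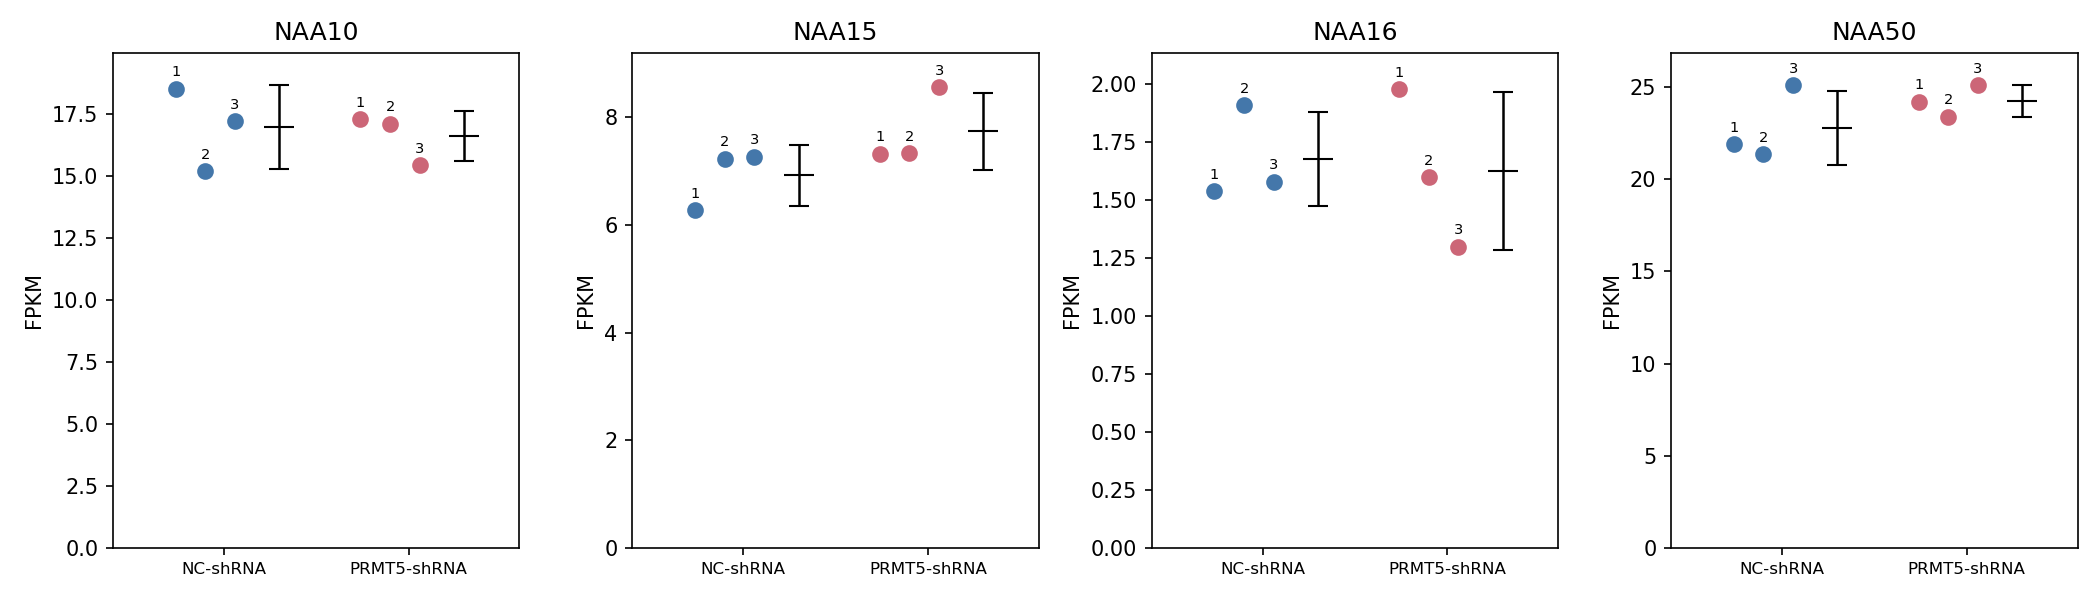
FPKM of NAA10, NAA15, NAA16 and NAA50 (y axes from 0, a different scale for each gene) in NC-shRNA (blue) and PRMT5-shRNA (red) cells, with 1 point per library, numbered by replicate, and the mean ± SD beside each group of 3. The groups overlap for all 4 genes.

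Levels were compared between genes per length, on the deposited FPKM scale. In NC-shRNA cells the order of mean FPKM was SERF2 (38.0), NAA50 (22.8), NAA10 (17.0), NAA15 (6.92), HYPK (5.75) and NAA16 (1.68). No 2 neighbours in this order overlapped over their 3 libraries. In PRMT5-shRNA cells the order was SERF2 (40.4), NAA50 (24.2), NAA10 (16.6), NAA15 (7.74), NAA16 (1.63) and HYPK (0.413), again with no overlap between neighbours. HYPK thus moved from the fifth place to the sixth, below NAA16. The place of HYPK depends on the length by which counts are divided. If all counts of HYPK were laid over the 1051 bases of HYPK-202, its FPKM would be 6.08 times as high in every library. Over the 1537 bases of SERF2-201, the FPKM of SERF2 would be 4.78 times as high. The NAA genes were not rescaled to a single transcript, so these factors do not give a new order.

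The other N-terminal acetyltransferases were also measured. These 9 subunits make up NatB (NAA20 and NAA25), NatC (NAA30, NAA35 and NAA38), NAA40, which acetylates histones, NAA60 of the Golgi, NAA80, which acetylates actin, and NAA11, a relative of NAA10. All 9 were tested and 0 were called by edgeR in either direction or by DESeq2. Their median log2 fold change was -0.0047, beside 0.0075 over all tested genes. NAA38 had 23.8, 21.6 and 21.5 CPM in control and 15.9, 19.1 and 18.2 CPM in PRMT5-shRNA libraries (log2 fold change -0.33, SE 0.105, edgeR adjusted p = 0.297). NAA40 had 39.7, 38.5 and 38.6 CPM against 43.5, 45.1 and 41.9 CPM (log2 fold change 0.16, SE 0.066, edgeR adjusted p = 0.385). Groups did not overlap for 3 of the 9, beside 21.7% of all tested genes. NAA38 and NAA20 were lower and NAA40 higher in PRMT5-shRNA cells. NAA38 and NAA40 were the 2 of 9 with an edgeR unadjusted p under 0.05, beside 12.8% of all tested genes. The 3 with the highest mean CPM, which is not corrected for length, were NAA25, NAA20 and NAA35, with log2 fold changes of -0.091, -0.13 and -0.054.

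Genes that act on the nascent chain at the same place and time as NatA were read next. The 13 listed factors of the ribosome exit site (the nascent polypeptide-associated complex, signal recognition particle and ribosome-associated chaperones) gave 13 tested gene records, since NACA2 was too low and HSPA14 has 2 records. None was called by edgeR or by DESeq2, 5 of the 13 had an unadjusted p under 0.05 (12.8% of all tested genes did), and 7 of the 13 had groups that did not overlap (21.7% of all). The median log2 fold change was -0.15, beside 0.0075 over all tested genes. Of the 13, 3 lay above 0, beside 51.2% of all tested genes. NACA, the alpha subunit of the nascent polypeptide-associated complex, had 367, 377 and 388 CPM in control and 228, 326 and 303 CPM in PRMT5-shRNA libraries. Its groups did not overlap, and the log2 fold change was -0.40 (SE 0.127, edgeR adjusted p = 0.297). BTF3, the beta subunit, had a log2 fold change of -0.093 (SE 0.050). SRP9, a subunit of the signal recognition particle, varied more within groups than between them, with 278, 119 and 274 CPM in control and 84.7, 105 and 264 CPM in PRMT5-shRNA libraries. HSPA14, a ribosome-associated chaperone, has 2 records that share 460 exon bases. ENSG00000284024 had a log2 fold change of 0.35 (SE 0.088) and ENSG00000187522 one of -0.22 (SE 0.082), and counting could divide reads between them.

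**Figure D5:**
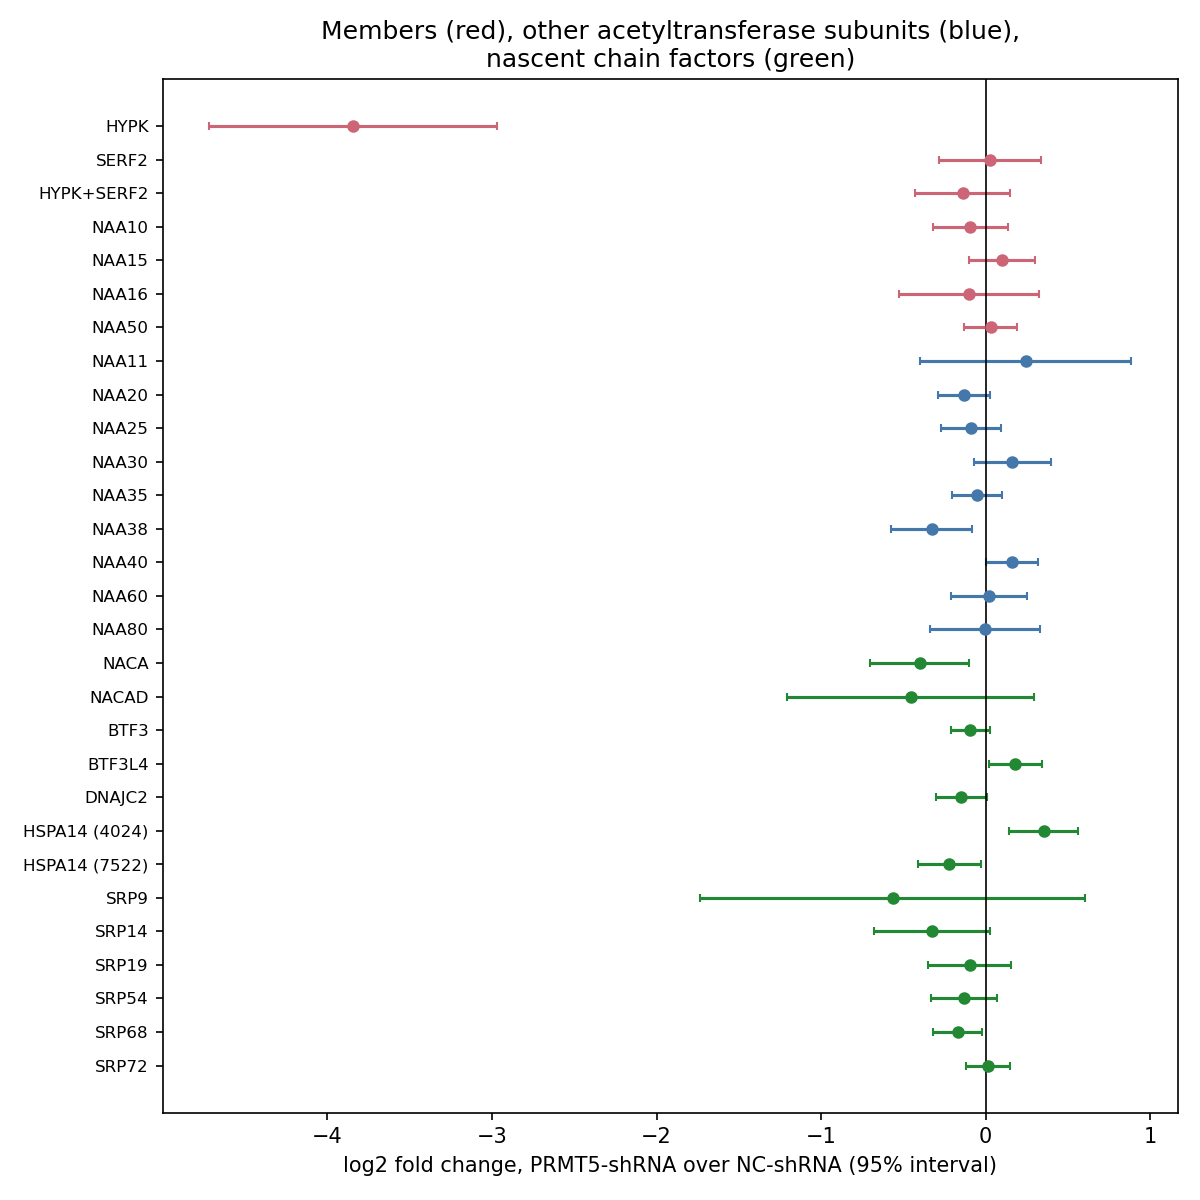
Log2 fold change of PRMT5-shRNA over NC-shRNA with its 95% interval (x axis) for the 6 members and the sum of HYPK and SERF2 (red), 9 other acetyltransferase subunits (blue) and 13 records of nascent chain factors (green), with the last digits of the gene identifier beside HSPA14. HYPK lies at -3.84, and all the other points lie between -0.56 (SRP9) and 0.35 (HSPA14).

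Of the 6 enzymes that remove the first methionine or attach myristate, 6 were tested and 0 were called by edgeR or DESeq2 (median log2 fold change -0.093), with 1 unadjusted p under 0.05. That was METAP2, a methionine aminopeptidase, with 124, 130 and 134 CPM in control and 116, 118 and 119 CPM in PRMT5-shRNA libraries (log2 fold change -0.14, SE 0.055, edgeR adjusted p = 0.373). NMT1, which attaches myristate, had a log2 fold change of -0.13 (SE 0.121) and METAP1 one of -0.067 (SE 0.075).

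Of 10 ubiquitin ligases that read N-termini or inhibit apoptosis, all 10 were tested and 0 were called by edgeR (median log2 fold change 0.067). Only XIAP had an unadjusted p under 0.05. XIAP, an inhibitor of apoptosis, was called by DESeq2, which called 2.33% of the genes to which it gave an adjusted p. XIAP had 36.8, 43.5 and 14.4 CPM in control and 13.2, 12.2 and 12.2 CPM in PRMT5-shRNA libraries. NC-shRNA replicate 3 lay next to the PRMT5-shRNA libraries, so the log2 fold change of -1.34 (SE 0.369, edgeR adjusted p = 0.253) rested on the other 2 controls. UBR4, a ubiquitin ligase of the N-degron pathways with the highest mean CPM of the list, had a log2 fold change of 0.12 (SE 0.083), and MARCH6, a ligase of the endoplasmic reticulum, had -0.053 (SE 0.136).

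SERF1A and SERF1B, the relatives of SERF2, are near-identical copies whose reads counting can divide. SERF1A had 11.1 ± 1.80 CPM in control and 10.8 ± 0.596 CPM in PRMT5-shRNA cells, and SERF1B had 13.3 ± 2.30 and 12.3 ± 1.81 CPM (SD, n = 3 each). Neither was called by edgeR or DESeq2 or had an unadjusted p under 0.05. Of 5 aggregation-prone proteins studied with HYPK or SERF proteins (HTT, APP, ATXN3 and TARDBP among them), 0 were called by edgeR or DESeq2. HTT, which encodes huntingtin, had 82.6 ± 3.57 CPM in control and 82.2 ± 3.65 CPM in PRMT5-shRNA cells (SD, n = 3 each), and its log2 fold change was -0.0075 (SE 0.065). APP, the amyloid precursor, had a log2 fold change of -0.018 (SE 0.051). Only ATXN3, ataxin 3, had an unadjusted p under 0.05. ATXN3 had 9.09, 10.4 and 10.2 CPM in control and 12.0, 11.8 and 13.0 CPM in PRMT5-shRNA libraries (log2 fold change 0.31, SE 0.110, edgeR adjusted p = 0.328).

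Over all lists together, 45 gene records were tested and 0 were called by edgeR, beside 0.0690% of all tested genes. An unadjusted p under 0.05 was found for 10 of the 45, and 14 of the 45 had groups that did not overlap, beside 12.8% and 21.7% of all tested genes. Their median log2 fold change was -0.023, beside 0.0075 over all tested genes. Of the 45, 19 lay above 0, beside 51.2% of all tested genes.

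The genes whose log2 CPM followed HYPK most closely over the 6 libraries were KIF26A (Pearson r = 0.997), MYBBP1A (0.994), TRMT10C (0.993), LHX6 (0.992) and RPL23P8 (0.991). KIF26A encodes a kinesin-like protein, MYBBP1A a nucleolar protein, TRMT10C a subunit of the mitochondrial ribonuclease P, LHX6 a homeobox factor, and RPL23P8 is a pseudogene. The libraries formed 2 groups in HYPK, so these values follow the gap between the groups and are given without a test. The changes were far smaller than that of HYPK. KIF26A had 42.6, 41.3 and 41.0 CPM in control and 31.6, 32.7 and 29.7 CPM in PRMT5-shRNA libraries (log2 fold change -0.41). The log2 fold changes of the other 4 lay between -0.74 and -0.27, and none of the 5 was called by edgeR.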

How the data were processed

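RNA-seq of NCI-H460 cells carrying a control or a PRMT5 hairpin (3 libraries each) was analysed, with groups and replicate numbers from the labels. The authors mapped reads with HISAT2 2.0.4 after cutadapt 1.9 and deposited an estimated count per gene from StringTie 1.3.4d, which was already a whole number. The authors also deposited FPKM per gene. Build GRCh38 is named in the labels. Low counts gathered at 4 (1214 to 1319 genes per library, against 283 to 546 with 3 or 5), so counts divided by 4 were an alternative. Counts were normalized by TMM, filtered with filterByExpr and tested with edgeR 4.0.16 (R 4.3.3, quasi-likelihood, Benjamini-Hochberg over 20295 genes), with SEs from the F statistic. The sum of HYPK and SERF2 was fitted as 1 gene in their place. DESeq2 1.42.0 and limma 3.58.1 on log2(FPKM + 1) or log2(FPKM + 0.1) were alternatives. Scripts were tested on simulated data. No libraries were duplicates (chi-square per degree of freedom at least 43.3). Of the gene identifiers, 58552 of 58825 were in GENCODE 29. Named genes were the 6 members, PRMT5, the neighbours of HYPK and SERF2 with counts, the called and up to 3 genes of highest mean CPM of each list, and the 5 genes most like HYPK. NAA38, NAA40, HSPA14, XIAP and ATXN3 were named after their values were seen. The members and lists were chosen with earlier results of these data known.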

Additional observations from a re-analysis of the deposited data

How the results depend on the processing

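The number of genes called, 14 in edgeR's quasi-likelihood test, was 401 in DESeq2, 2 in an ordinary linear model of log2(FPKM + 1), 0 with the replicate block and 8 to 25 with 1 library left out. The call of HYPK, which was chosen on this contrast, is given as a description. It was absent in 6 of 16 alternatives, namely the linear model (-2.27), the replicate block (-3.96), each fit without 1 NC-shRNA library and the fit without PRMT5-shRNA replicate 1. With 1 library left out its log2 fold change lay between -4.27 and -3.53. Same-numbered libraries did not deviate together over all tested genes (correlations 0.035, -0.010 and -0.015). The labels do not say whether they were prepared together, and these correlations do not settle it. The SE of every member and of the sum was smaller with the block (0.30 against 0.37 for HYPK). With the block, 2382 genes had an unadjusted p under 0.05, against 2605 without it.

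SERF2 changed sign without NC-shRNA replicate 3 (-0.11) and without PRMT5-shRNA replicate 1 (-0.0039), NAA16 without PRMT5-shRNA replicate 3 (0.036) and NAA50 without NC-shRNA replicate 2 (-0.015). With 1 library left out, SERF2 lay between -0.11 and 0.16, NAA16 between -0.27 and 0.036 and NAA50 between -0.015 and 0.087. These 3 members, NAA10, NAA15 and the sum were called in none of the 16 alternatives. NAA10 stayed below 0 and NAA15 above 0 in all 16, and the sum stayed between -0.27 and -0.016. The share of HYPK fell by 10.3 to 12.3 percentage points. The cause of these shifts was not tested. With 3 libraries a group, an exact permutation test of the share cannot go below 0.10.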
